A study of Mus musculus with 6 samples.

Results

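The genes described are those of the tumor necrosis factor (TNF) ligand and receptor superfamily, measured in blood stem and progenitor cells with and without the NF-κB subunit p65. They were chosen by gene symbol: every array row annotated to a single gene whose symbol starts with Tnfsf or Tnfrsf and a digit, together with Tnf, Lta, Ltb, Ltbr, Fas, Fasl, Cd27, Cd40, Cd40lg, Cd70, Ngfr and Eda2r. The choice used no measured value, but it was made with earlier results of these data known. It gave 41 of the 19938 genes compared, 15 of them ligands and 26 receptors, and each of the 41 was read by 1 row of the array table. The cells came from the bone marrow of 3 wild-type mice and 3 p65 knockout mice, with 1 array per mouse, and in both groups they had been sorted as lacking lineage markers and Flk2 and carrying c-kit and Sca-1, the marker set under which the most primitive blood-forming cells are isolated. The title of the study places the deletion in the hematopoietic compartment, while the sample labels give neither the means of deletion nor the strain or age of the mice. The comparison asks which transcripts differ between the genotypes in these cells. All values are log2 array signals, and fold changes are knockout over wild-type, so that a negative value means less signal in the knockout.

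TNF superfamily ligands are trimeric proteins, most of them anchored in the membrane of the cell that makes them. Their receptors carry cysteine-rich repeats outside the cell and, inside it, either sites for TRAF adaptor proteins, which lead to activation of NF-κB, or a death domain, which can also lead to caspase activation. NF-κB stands on both sides of the family, since the receptors activate it and it is in turn a known regulator of several ligand and receptor genes. In blood, members of the family are best known for roles in lymphocytes, lymphoid organs, bone turnover and inflammation, and TNF is also known to act on hematopoietic stem cells.

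The arrays had median log2 signals between 5.72 and 5.98. The first wild-type array differed most from the rest, with an SD over rows of 2.03 where the other 5 had 2.22 to 2.29, and with correlations to them of 0.924 to 0.943. Values without this array, wild-type replicate 1, are given beside many of the results. Rela, the gene of p65, had signals of 7.52, 7.89 and 7.92 in wild-type mice and 7.33, 7.48 and 7.35 in knockout replicates 1 to 3. Each knockout value of Rela lay below each wild-type value, with a log2 fold change of -0.39 (SE 0.16; limma adjusted p = 0.209), which did not pass. It was -0.63 after quantile and -0.64 after cyclic loess normalization. The labels do not say whether the probes of this row lie in the deleted part of the gene. Of the marker genes of the sorted cells, 7 of 9 were measured and all 7 lay above the signal of olfactory receptor genes, which blood cells do not use. That mark, used below for dim members, is the 95th percentile of the mean signal of 1027 olfactory receptor genes, 5.66. Of these 7, Hlf passed as lower in knockout, and the list's mean was 7.99 to 8.45 in the wild-type arrays and 7.49 to 7.76 in the knockouts. All 8 markers of myeloid progenitors passed as higher in knockout, and their mean log2 signal was 7.59 to 7.85 in the wild-type arrays and 9.81 to 10.1 in the knockout arrays. Of the 7 markers of mast cells, basophils and eosinophils, Fcer1a, Hdc and Ms4a2 also passed as higher, with a list mean of 6.83 to 7.57 in the wild-type arrays and 8.27 to 8.89 in the knockouts. The part of such a difference in cell makeup in the results below was not tested, and in sorted bulk cells fewer cells of a type and less RNA per cell cannot be told apart.

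No member of the superfamily passed the test across all genes. With limma and Benjamini-Hochberg adjustment at 0.05, 0 of 15 ligands and 0 of 26 receptors passed in either direction, where 0.818% of all genes did (0.687% higher and 0.13% lower). The smallest adjusted p was 0.106, that of Tnfrsf13c, the gene of the BAFF receptor. At an unadjusted limma p under 0.05, 6 members were lower in knockout and 0 were higher, or 14.6% of the 41, against 21.6% of all genes (13.8% higher and 7.76% lower). The 6 were Ltb, Tnfrsf13c, Tnfrsf9, Tnfsf15, Fas and Tnfsf11. Groups did not overlap for 11 members, with 9 lower and 2 higher in knockout, where 34.6% of all genes showed no overlap (15.4% lower and 19.2% higher). The members' median log2 fold change was -0.14, beside -0.04 for all genes, and 27 of 41 were negative (65.9%, against 54.1% of all genes). The members' median was -0.06 after quantile and -0.07 after cyclic loess normalization. Of the 21 members with signal above the mark, 19 had an unadjusted 95% interval between -1 and 1, and Ltb and Tnfrsf13c had intervals that reached below -1. For the other 20 an interval does not limit the change of the transcript, since their signal is not above background.

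**Figure D1:**
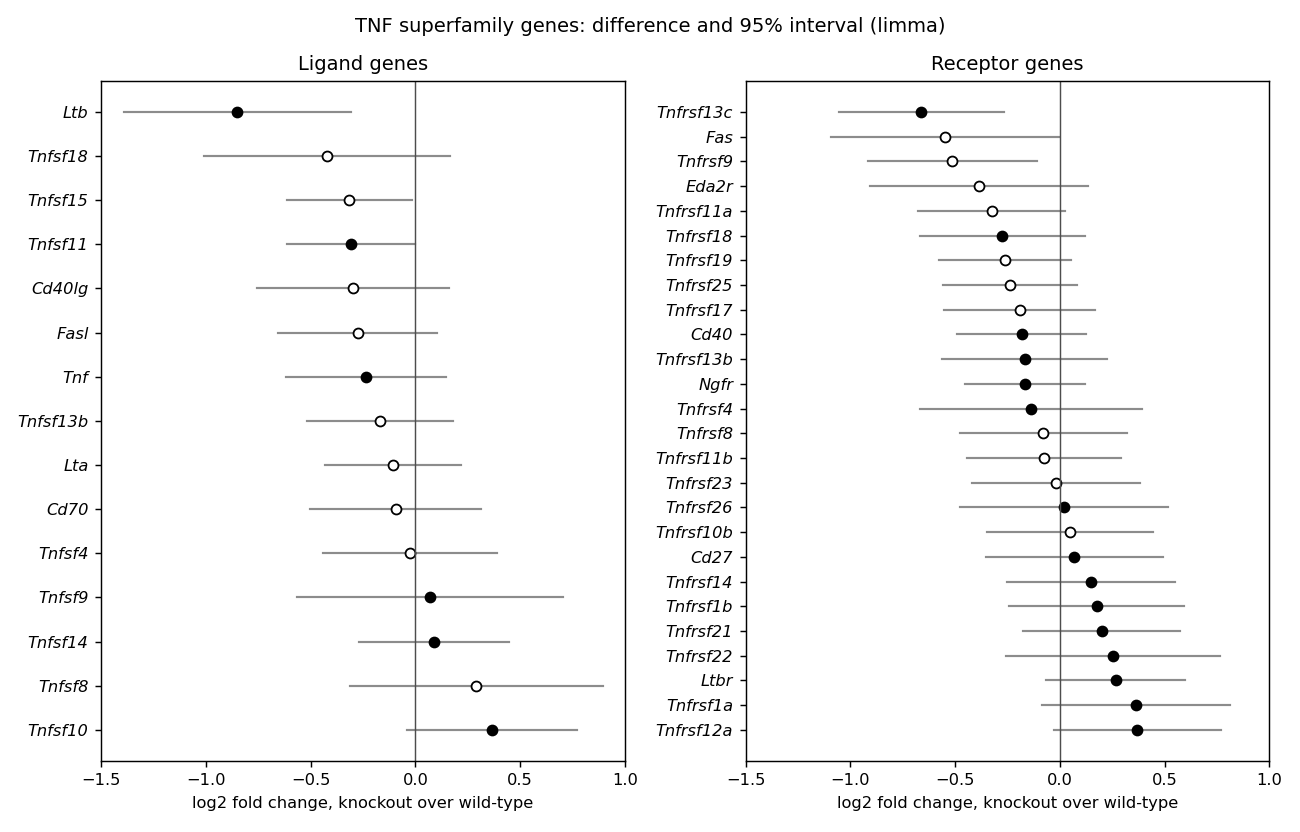
Log2 fold change (knockout over wild-type, horizontal axis) of the 15 ligand genes and 26 receptor genes, with points for the limma estimate and bars for its unadjusted 95% interval. Filled points are members whose mean signal lay above the olfactory receptor mark of 5.66 and open points those at or below it; Ltb at -0.85 and Tnfrsf13c at -0.66 lie farthest from 0 in their panels.

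Ltb, which encodes lymphotoxin beta, the membrane anchor of the lymphotoxin heterotrimer, had the largest difference of all members. Its signals were 6.48, 7.31 and 7.18 in wild-type replicates 1 to 3 and 5.93, 6.37 and 6.11 in the knockouts. The groups did not overlap, although wild-type replicate 1 lay near the highest knockout value. The means were 6.99 ± 0.45 and 6.14 ± 0.22 (SD, n = 3 each), a log2 fold change of -0.85 (95% interval -1.39 to -0.31; limma adjusted p = 0.121), or 1.80-fold lower in knockout. A two-sided exact permutation test of its 6 values returned 0.1, which is the lowest p possible with 3 arrays a group. Same-numbered arrays differed by -0.54, -0.94 and -1.07 (knockout minus wild-type), though the labels do not say that the numbers mark a pairing. With the replicate number as a block Ltb was called as lower (limma adjusted p = 0.0446, where 1.87% of all genes were called and 0.451% as lower). Without wild-type replicate 1 it was also called, at -1.11 (limma adjusted p = 0.017, with 4.66% of all genes called and 1.38% as lower). Over all 15 alternatives its adjusted p ran from 0.0073 to 0.391, its log2 fold change from -1.11 to -0.69, and it was called in 3, the third being limma array weights.

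Of 32 members with an entry in the RefSeq promoter table (mouse assembly GRCm38.p6, 250 bases before to 50 after a gene's start), 3 held the NF-κB motif on either strand, Ltb, Tnfrsf8 and Tnfrsf9. That is 9.38% of these members, against 5.14% of the 27025 genes of the table. The 250 bases before the start of Ltb are shown because this member had the largest difference, with the match in capitals, which lies from 87 to 78 bases before the start on the opposite strand (chr17:35194257-35194506, + strand, GRCm38.p6):
Ltb: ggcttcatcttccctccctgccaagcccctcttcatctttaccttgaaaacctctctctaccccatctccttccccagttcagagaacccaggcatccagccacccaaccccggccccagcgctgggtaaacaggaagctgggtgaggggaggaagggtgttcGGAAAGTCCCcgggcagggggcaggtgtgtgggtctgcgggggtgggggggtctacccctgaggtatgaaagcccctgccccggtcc
The match is a description of the letters, not a measured binding site.

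Ltb lies beside Tnf and Lta, and the 3 genes follow each other without another protein-coding gene between them in the RefSeq table. Lta, which encodes lymphotoxin alpha, the partner of lymphotoxin beta in the heterotrimer, had signals of 4.72, 4.97 and 4.69 in wild-type mice and 4.62, 4.78 and 4.65 in the knockouts. These values overlap and lie below the olfactory receptor mark. The log2 fold change of Lta was -0.11 (95% interval -0.43 to 0.22; limma adjusted p = 0.625), and its sign turned with quantile (0.13) or cyclic loess (0.12) normalization of the arrays. Tnf, the founding cytokine of the family, had signals of 6.53, 6.03 and 6.31 in wild-type mice and 6.05, 5.95 and 6.17 in the knockouts. All of these lie close together, with 2 of 3 knockout values inside the wild-type range. The difference for Tnf was -0.23 (95% interval -0.62 to 0.15; limma adjusted p = 0.394) on the log2 scale, negative under all 15 alternatives, and -0.11 without wild-type replicate 1. Whether Ltb differs from its neighbours in its response was not tested.

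**Figure D2:**
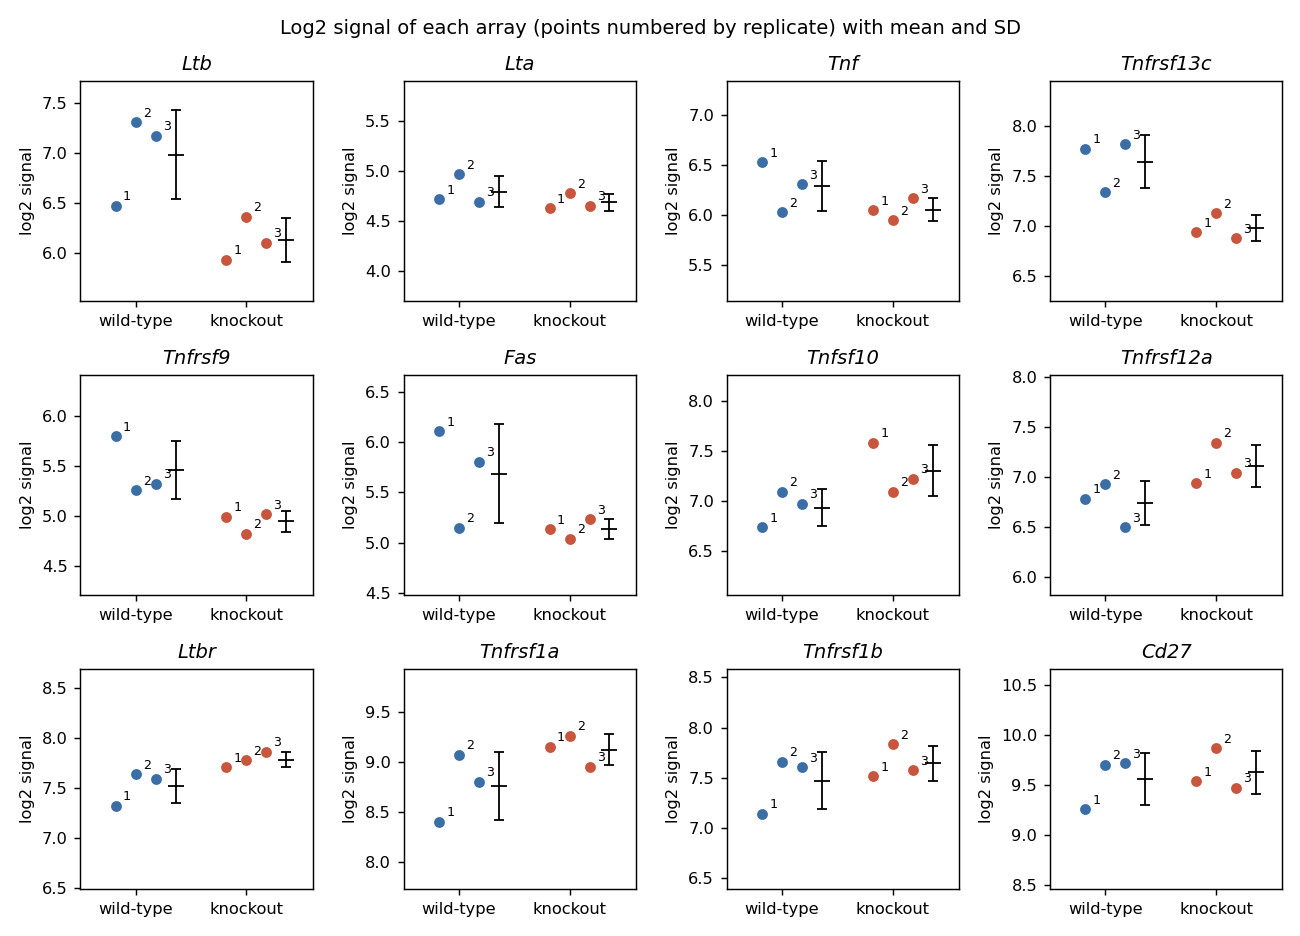
Log2 signal (vertical axis, each panel 2.2 units high) of 12 members in each of the 3 wild-type and 3 knockout arrays, numbered by replicate, with the group mean and SD as a bar beside the points. Values of Ltb, Tnfrsf13c and Tnfrsf9 are lower in every knockout array than in every wild-type array, those of Tnfrsf12a and Ltbr are higher, and the groups overlap for the other 7.

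The receptors to which these ligands bind had higher mean signals in knockout, and 0 of 3 passed. Ltbr, the lymphotoxin beta receptor, which acts through the noncanonical NF-κB route, had signals of 7.33, 7.64 and 7.60 in wild-type mice and 7.71, 7.78 and 7.86 in the knockouts. Every knockout value was the higher, by a margin smaller than the spread within wild-type. The log2 fold change of Ltbr was 0.27 (SE 0.14; limma adjusted p = 0.299), 0.17 without wild-type replicate 1, and it was close to 0 under quantile (-0.00042) and cyclic loess normalization (0.0042). Tnfrsf1a encodes TNF receptor 1, the death-domain receptor of TNF found on most cells, and gave 8.40, 9.07 and 8.80 in wild-type mice and 9.15, 9.26 and 8.95 in the knockouts. The lowest knockout value lies inside the wild-type range, and the lowest value is that of wild-type replicate 1. Its log2 fold change was 0.36 (95% interval -0.08 to 0.81; limma adjusted p = 0.295), 0.18 without wild-type replicate 1 and 0.016 with cyclic loess normalization. Tnfrsf1b, the gene of TNF receptor 2, which binds TRAF proteins and lacks a death domain, gave 7.14, 7.66 and 7.61 in wild-type mice and 7.51, 7.84 and 7.58 in the knockouts. The groups overlap, and the log2 fold change of 0.17 (95% interval -0.24 to 0.59; limma adjusted p = 0.545) was 0.01 without wild-type replicate 1 and was below 0 after quantile (-0.06) or cyclic loess (-0.07) normalization.

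Tnfrsf13c had the largest difference among the receptors. It encodes the BAFF receptor, which carries survival signals in B cells and acts through noncanonical NF-κB. Its signals were 7.77, 7.34 and 7.82 in wild-type mice and 6.94, 7.13 and 6.88 in the knockouts. The groups did not overlap, and wild-type replicate 2 lay nearest to the knockouts. The means were 7.64 ± 0.26 and 6.98 ± 0.13 (SD, n = 3 each), with a log2 fold change of -0.66 (95% interval -1.06 to -0.27; limma adjusted p = 0.106), or 1.58-fold lower in knockout. The two-sided exact permutation p was 0.1. With the replicate block the limma adjusted p was 0.0899, and without wild-type replicate 1 the value was -0.60 (limma adjusted p = 0.0828). It was negative under all 15 alternatives, from -0.89 to -0.57, with adjusted p from 0.0306 to 0.391, and called in 1, limma array weights, where 8.02% of all genes were called and 2.42% as lower.

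The other measured genes of the BAFF and APRIL group showed smaller differences. Tnfrsf13b encodes TACI, a second receptor of BAFF, and had signals of 7.38, 7.26 and 7.75 in wild-type mice and 7.38, 7.38 and 7.11 in the knockouts. The groups overlap, with a log2 fold change of -0.17 (95% interval -0.56 to 0.23; limma adjusted p = 0.535). It was -0.03 without wild-type replicate 3, the highest array, and -0.40 after quantile and -0.39 after cyclic loess normalization. Tnfrsf17, the gene of the plasma cell receptor BCMA, and Tnfsf13b, the gene of BAFF itself, lay below the olfactory receptor mark, with log2 fold changes of -0.19 and -0.17. After quantile normalization these last 2 were 0.05 and 0.08. Of this group of 5, 4 were measured and 0 passed limma, and all 4 were negative on the deposited values, as were 87.0% of all genes at or below the mark, where 2 of the 4 lie. The fifth, Tnfsf13 (APRIL), shares its row with Tnfsf12 (TWEAK) and Tnfsfm13, so these could not be read apart. That row gave 7.04, 7.34 and 7.75 in wild-type mice and 7.31, 7.54 and 7.51 in the knockouts, a difference of 0.08.

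Ltb and Tnfrsf13c are both genes that lymphocytes use, and the mean signal of lymphocyte markers was also lower in every knockout array. Of 13 such markers 11 were measured, 0 passed limma, and this mean on the log2 scale was 4.95 to 5.45 in the wild-type arrays and 4.75 to 4.91 in the knockouts. Signals of 8 of the 11 lay at or below the olfactory receptor mark, among them Cd3d, Cd4, Cd8a and the B cell gene Ms4a1. Of all genes at or below that mark 87.0% were negative, with a median log2 fold change of -0.22. Jchain, a plasma cell gene, ran at 5.13, 3.21 and 7.12 in wild-type replicates 1 to 3 and 3.37, 3.45 and 3.13 in the knockouts. Of the 3 above the mark, the T cell gene Cd3e was lower in every knockout array, barely so for the closest values, at 6.23, 5.97 and 6.15 in wild-type mice and 5.97, 5.80 and 5.97 in the knockouts, a difference of -0.21. The B cell receptor genes Cd79a and Cd79b differed by 0.35 and 0.18, and by 0.12 and 0.21 with the first wild-type array left out, and Cd79b was -0.14 after quantile normalization. The dendritic cell list (4 of 4 measured) also had a lower mean in every knockout array, 5.31 to 5.47 against 5.48 to 5.99. So did the stroma and endothelium list (8 of 8), at 5.33 to 5.39 against 5.51 to 5.76, with 0 genes called in either. At or below the mark lay 3 of the 4 and 5 of the 8. In the stroma and endothelium list Emcn differed most, at 7.06, 6.59 and 8.16 in wild-type mice and 5.72, 5.80 and 5.86 in the knockouts. Emcn was also the only gene of that list whose groups did not overlap, so the lower list mean rests largely on it. Pecam1 was the only gene of that list with a positive difference, 0.29. The macrophage and granulocyte list (10 of 10) was not lower, with means of 5.21 to 5.59 in the wild-type arrays and 5.32 to 5.40 in the knockouts. The part of RNA from lymphocytes or these other cells in the values of Ltb and Tnfrsf13c was not tested.

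Among the death-domain receptors (Tnfrsf1a, Fas, Tnfrsf10b, Tnfrsf21, Tnfrsf25 and Ngfr), 0 of 6 passed and 3 were negative. Fas, whose product triggers apoptosis on binding Fas ligand, had signals of 6.11, 5.15 and 5.81 in wild-type mice and 5.13, 5.04 and 5.24 in the knockouts. Wild-type replicate 2 lies among the knockouts, and wild-type replicates 1 and 3 lie above them. The log2 fold change of Fas was -0.55 (95% interval -1.10 to -0.01; limma adjusted p = 0.227) and -0.34 without wild-type replicate 1, at a mean signal below the olfactory receptor mark. Fasl, the gene of its ligand, also lay below that mark, with 3.89, 3.45 and 3.58 in wild-type mice and 3.54, 3.28 and 3.27 in the knockouts. These overlap, with a log2 fold change of -0.28 (SE 0.16; limma adjusted p = 0.333), -0.15 without wild-type replicate 1. Tnfrsf21 encodes death receptor 6 and gave 7.98, 8.44 and 8.33 in wild-type mice and 8.32, 8.53 and 8.50 in the knockouts. Apart from the low wild-type replicate 1 the values are close together. The difference was 0.20 (95% interval -0.18 to 0.57; limma adjusted p = 0.45), 0.06 without that array, and negative under quantile (-0.11) and cyclic loess (-0.13) normalization. Tnfrsf25 and Ngfr had log2 fold changes of -0.24 and -0.17, of which Ngfr alone lay above the mark, and these became 0.00 and -0.09 after quantile normalization. Eda2r, a receptor of ectodysplasin that lacks a death domain, lay below the mark at -0.39, and at -0.14 without wild-type replicate 1.

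Tnfsf10, the gene of the apoptosis-inducing ligand TRAIL, was the ligand with the highest positive value. Its signals were 6.73, 7.09 and 6.97 in wild-type mice and 7.58, 7.09 and 7.22 in the knockouts. Knockout replicate 1 stands above the rest, and the lowest knockout value equals the highest wild-type value to 2 decimals. The log2 fold change of 0.37 (95% interval -0.04 to 0.77; limma adjusted p = 0.262) was positive under all 15 alternatives and 0.27 without wild-type replicate 1. The TRAIL receptor gene Tnfrsf10b lay below the olfactory receptor mark and differed by 0.05 (95% interval -0.35 to 0.44; limma adjusted p = 0.87) on the same scale. Of the receptors grouped here as decoys, 0 of 4 passed: 0.25 for Tnfrsf22, -0.02 for Tnfrsf23, 0.02 for Tnfrsf26 and -0.08 for Tnfrsf11b, the gene of osteoprotegerin. Tnfrsf23 and Tnfrsf11b lay below the mark. The value of Tnfrsf22 rested on wild-type replicate 1, at 6.34 against 7.12 and 7.15 in the other wild-type arrays, and was -0.01 without it. Tnfrsf22, Tnfrsf23 and Tnfrsf26 lie side by side on chromosome 7 without another protein-coding gene between them. The groups overlapped for all 4 of these receptors, where 34.6% of all genes showed no overlap.

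Besides Ltbr and Tnfrsf13c, the receptors that act through noncanonical NF-κB were Tnfrsf12a, Tnfrsf11a, Cd40 and Tnfrsf1b, and 0 of these 6 passed. Tnfrsf12a, which encodes the TWEAK receptor Fn14, had signals of 6.79, 6.93 and 6.50 in wild-type mice and 6.94, 7.34 and 7.05 in the knockouts. The groups do not overlap, but the lowest knockout value lies only just above the highest wild-type value. Its log2 fold change of 0.37 (95% interval -0.03 to 0.77; limma adjusted p = 0.254) was positive under all 15 alternatives (0.19 to 0.47) and 0.39 without wild-type replicate 1. Cd40, the costimulatory receptor of B cells and antigen-presenting cells, gave 6.08, 6.08 and 5.96 in wild-type mice and 5.97, 5.74 and 5.86 in the knockouts. The spread is narrow and the groups overlap, with a log2 fold change of -0.18 (95% interval -0.49 to 0.13; limma adjusted p = 0.407). Its ligand gene Cd40lg lay below the mark, at -0.30, and at -0.09 without wild-type replicate 1.

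Tnfsf11 and Tnfrsf11a, which encode the bone-resorption factor RANKL and its receptor RANK, were both lower in every knockout array than in every wild-type array. Tnfsf11 had signals of 6.56, 6.41 and 6.34 in wild-type mice and 6.17, 6.06 and 6.15 in the knockouts. Its log2 fold change was -0.31 (SE 0.13; limma adjusted p = 0.229), negative under all 15 alternatives. Tnfrsf11a had 5.29, 4.87 and 4.97 in wild-type mice and 4.72, 4.68 and 4.75 in knockout, below the mark, and a log2 fold change of -0.33 (SE 0.15; limma adjusted p = 0.254). Neither passed limma, and without wild-type replicate 1 the values were -0.25 and -0.20. Among members that are not partners of these, Tnfsf15 and Tnfrsf19, both below the mark, also had lower values in every knockout array. Tnfsf15, the gene of the ligand TL1A, gave 5.70, 5.65 and 5.57 in wild-type mice and 5.36, 5.38 and 5.24 in knockout, a difference of -0.32 (SE 0.13; limma adjusted p = 0.213). Tnfrsf19, the gene of the receptor TROY, gave 5.77, 5.70 and 5.61 in wild-type mice and 5.30, 5.45 and 5.55 in knockouts, a difference of -0.26 (SE 0.14; limma adjusted p = 0.288). After quantile normalization the differences of Tnfsf15, Tnfrsf19 and Tnfrsf11a were -0.13, -0.10 and -0.11, while that of Tnfsf11 was -0.34. Of the 20 members at or below the mark 5 were lower without overlap (25.0%), beside 24.9% of all genes there. Tnfsf11 lies above the mark, where 907 of 11260 genes were lower without overlap.

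The receptors and ligands of lymphocyte costimulation numbered 14, of which 0 passed limma and 9 were negative, with a median log2 fold change of -0.09. Tnfrsf9, the gene of 4-1BB, had the largest difference of these. Its signals were 5.80, 5.26 and 5.32 in wild-type mice and 4.99, 4.82 and 5.02 in the knockouts. The groups do not overlap, and wild-type replicate 1 is the highest. The mean signal lies below the mark, where 24.9% of all genes were lower without overlap. The log2 fold change was -0.51 (95% interval -0.92 to -0.11; limma adjusted p = 0.166) and -0.34 without wild-type replicate 1. Tnfrsf9 has a pair of promoters in the RefSeq table, and the downstream one holds the NF-κB motif in 3 overlapping matches on both strands, 43 to 33 bases before the start, shown in capitals because this gene too was lower in every knockout array (chr4:150927749-150927998, + strand, GRCm38.p6):
Tnfrsf9: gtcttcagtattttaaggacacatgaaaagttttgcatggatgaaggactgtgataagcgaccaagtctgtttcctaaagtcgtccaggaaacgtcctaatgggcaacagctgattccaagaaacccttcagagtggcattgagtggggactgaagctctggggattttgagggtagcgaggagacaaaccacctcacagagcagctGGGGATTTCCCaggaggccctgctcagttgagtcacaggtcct
Tnfrsf8, the gene of CD30 and the other member with the motif, lay below the mark and differed by -0.08 (95% interval -0.48 to 0.32; limma adjusted p = 0.774). Its promoter is not shown, and whether the motif goes with a difference was not tested.

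Cd27, a receptor of lymphocytes and early progenitors, had signals of 9.26, 9.70 and 9.72 in wild-type mice and 9.54, 9.87 and 9.47 in the knockouts. The groups overlap, and the log2 fold change was 0.07 (95% interval -0.35 to 0.49; limma adjusted p = 0.819), with the sign turning without wild-type replicate 1 (-0.08) and under quantile (-0.28) and cyclic loess (-0.27) normalization. The gene of its ligand, Cd70, lay below the mark at -0.09. Tnfrsf14, which encodes the receptor HVEM, gave 7.85, 7.79 and 7.82 in wild-type mice and 8.31, 7.86 and 7.73 in the knockouts. Knockout replicate 1 alone is high, and without it the log2 fold change of 0.15 (95% interval -0.25 to 0.55; limma adjusted p = 0.59) became -0.02. Tnfsf14, the gene of its ligand LIGHT, gave 6.79, 6.39 and 6.75 in wild-type mice and 6.82, 6.71 and 6.67 in the knockouts. Only knockout replicate 1 lies outside the wild-type range, just above it, with a log2 fold change of 0.09 (95% interval -0.27 to 0.45; limma adjusted p = 0.717). Tnfsf18, the gene of GITR ligand, gave 4.77, 3.96 and 3.93 in wild-type mice and 4.11, 3.72 and 3.55 in knockout, below the mark. Its log2 fold change moved from -0.42 (limma adjusted p = 0.339) to -0.15 without wild-type replicate 1, which had the highest signal. The receptor gene Tnfrsf18 lay above the mark and differed by -0.27 (SE 0.17; limma adjusted p = 0.349) on the log2 scale, and by -0.42 without wild-type replicate 1. The remaining 4 had log2 fold changes of -0.14 for Tnfrsf4 (OX40), -0.03 for Tnfsf4, 0.29 for Tnfsf8 and 0.07 for Tnfsf9. Of these, Tnfsf4 and Tnfsf8 lay below the mark. Without wild-type replicate 1 that of Tnfsf8 was 0.57 (limma adjusted p = 0.117), against 0.03 with wild-type replicate 3 left out instead, and that of Tnfsf9 was -0.18.

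The sign of a difference varied with signal, among the members and among all genes. Of the 21 members above the olfactory receptor mark, 9 were negative and the median log2 fold change was 0.07, beside 0.20 for the 11260 genes above it. Of the 20 at or below it, 18 were negative and the median was -0.21, beside -0.22 for the 8678 genes there. Without wild-type replicate 1 the medians of members above and below the mark were -0.08 and -0.15, beside 0.06 and -0.10 for all genes. Of genes with a mean signal like that of Ltb (997 genes, 1 of 20 near-equal groups by signal) the median was 0.06. For Tnfrsf13c (998 genes) it was 0.25, so Ltb and Tnfrsf13c lay on the other side of 0 from their group's median. Among others, so did Tnfrsf18 (-0.27, group median 0.21) and Tnfrsf13b (-0.17, group median 0.25). Tnfrsf1a (0.36) and Ltbr (0.27) lay near the medians of their groups (0.33 and 0.30). Wild-type replicate 1 gave the highest of the 6 values for 17 of 41 members and the lowest for 9, or 41.5% and 22.0%, beside 36.1% and 39.0% of all genes.

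**Figure D3:**
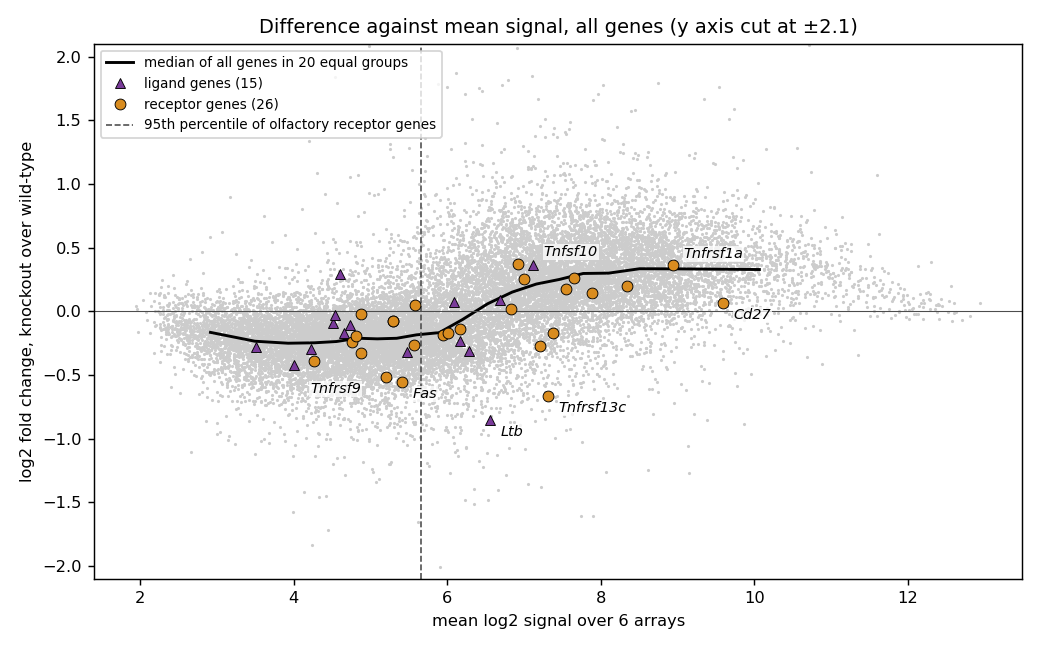
Log2 fold change (knockout over wild-type, vertical axis, 19 genes beyond 2.1 not shown) against mean log2 signal over 6 arrays (horizontal axis) for all 19938 genes in grey, with the median of 20 near-equal groups as a black line, ligands as triangles and receptors as circles. Ltb and Tnfrsf13c lie below the line, as do Tnfrsf18, Tnfrsf13b, Tnfrsf9 and Fas among others, while Tnfrsf1a and Ltbr lie near it. Distance from the line was not tested.

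The adaptors, kinases, ligases, caspases and shedding enzymes downstream of or around these receptors were taken as a list of 50 symbols, of which 46 were measured and Ripk1, Traf3, Chuk and Fam105b, an older symbol of Otulin, were not analysed here. None passed limma in either direction, with or without the replicate block or any 1 array. At an unadjusted p under 0.05, 11 were higher and 1 lower (26.1% of the 46, beside 21.6% of all genes). Of the 46, 44 lay above the olfactory receptor mark. Of the 11260 genes above it, 28.3% had such a p, 2679 of them higher and 507 lower. The median log2 fold change of the list was 0.23, beside 0.20 for all genes above the mark. It was 0.02 without wild-type replicate 1, 0.06 with array weights, 0.39 without wild-type replicate 3, 0.03 with quantile and 0.01 with cyclic loess normalization. Mlkl, the executor of necroptosis, had signals of 7.13, 7.47 and 7.64 in wild-type mice and 7.95, 7.96 and 7.86 in knockout, a log2 fold change of 0.51 (SE 0.16; limma adjusted p = 0.151). Each knockout value was the higher. Otulin, a deubiquitinase of linear ubiquitin chains, differed by 0.54 on the log2 scale (limma adjusted p = 0.155), and Rhbdf2, a partner of the TNF-shedding protease, by 0.42. The other 3 of the 6 smallest p were Siva1 at 0.52, Daxx at 0.71 and Tank, which binds TRAF proteins, at 0.92. With the first wild-type array left out, Mlkl was 0.37, Otulin 0.36, Rhbdf2 0.38, Siva1 0.35, Daxx 0.44 and Tank 0.56. After quantile normalization Mlkl was 0.25, Otulin 0.23, Siva1 0.16, Rhbdf2 0.49, Daxx 0.46 and Tank 0.87. Traf1, an adaptor of TNF receptor 2, was the 1 lower gene at that level, at 4.24, 4.19 and 4.41 in wild-type mice and 3.90, 3.81 and 4.04 in the knockouts. It lay below the olfactory receptor mark, with a log2 fold change of -0.37 (SE 0.14; limma adjusted p = 0.195) and -0.11 after quantile normalization.

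Of the 23 members given by array, 16 kept the sign of their difference under all alternatives tried and 7 did not (Lta, Tnfsf14, Ltbr, Tnfrsf21, Tnfrsf1b, Tnfrsf14 and Cd27). Of the other 18 members, 12 changed sign under at least 1 alternative. Among those that kept their sign, quantile normalization moved Tnfsf10 to 0.18, Tnfrsf12a to 0.19, Tnfrsf9 to -0.33, Tnfsf18 to -0.19, Fasl to -0.05 and Cd40 to -0.09. The plot of 6 members by processing shows both kinds. Ltb, Tnfrsf13c and Tnfrsf12a stayed on 1 side of 0, while the positive values of Tnfrsf1a and Ltbr came close to 0 after quantile or cyclic loess normalization of the arrays.

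**Figure D4:**
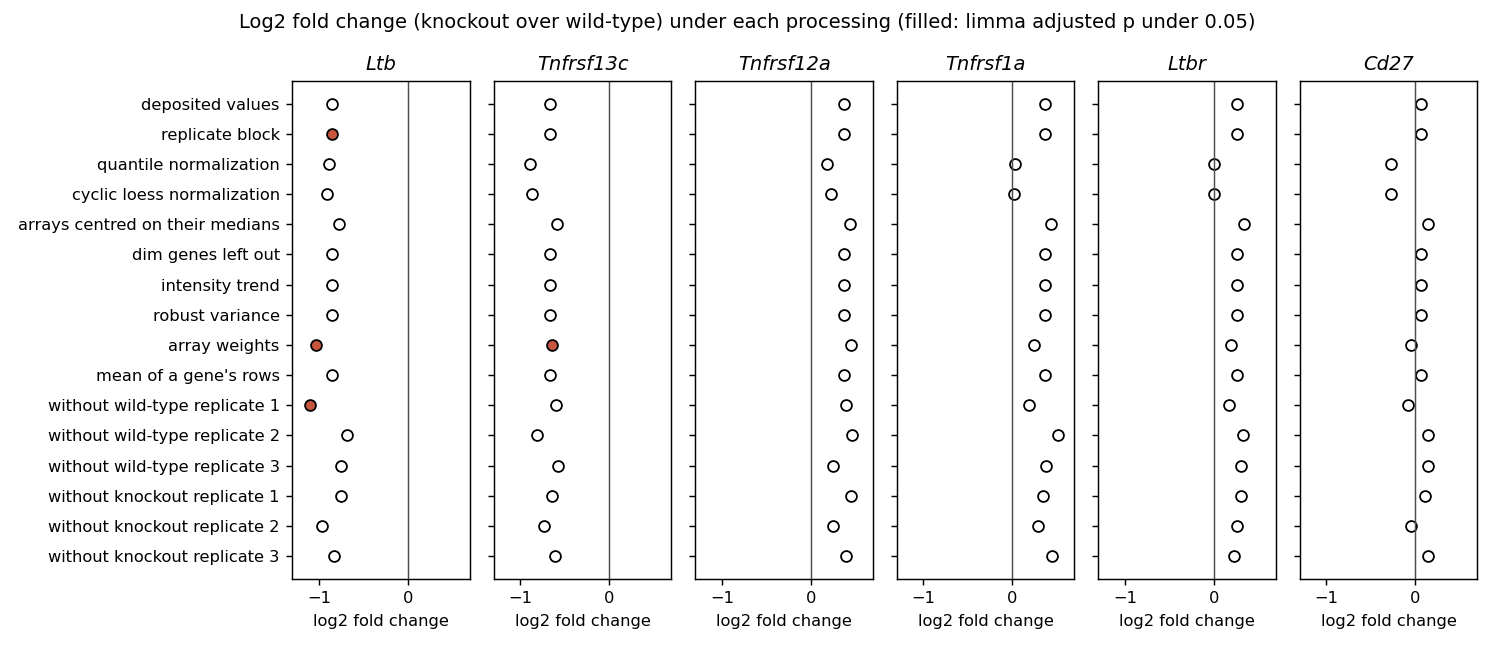
Log2 fold change (knockout over wild-type, horizontal axis) of 6 members on the deposited values and under 15 alternatives in processing (rows), filled where the limma adjusted p was under 0.05. Ltb and Tnfrsf13c are negative in every row, filled in 3 and 1 of them, while Tnfrsf1a, Ltbr and Cd27 move toward or past 0 under quantile and cyclic loess normalization.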

How the data were processed

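Gene expression was measured on Affymetrix arrays, 1 per mouse. The authors deposited log2 values; RMA, Affymetrix Expression Console and Partek are named in the submitters' processing notes, without versions. RMA subtracts background, normalizes and summarises probes. No source used here says whether all 6 arrays were normalized together. Rows were named by the annotation of the Mouse Gene 1.0 ST array, although the series describes an exon array. Of 35557 rows, 21789 have 1 gene symbol, 1621 several and 12147 none, and the row with the highest mean was kept per gene, leaving 19938 genes.

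Groups were compared in limma 3.58.1 (R 4.3.3) over all genes, two-sided, by group alone (4 residual degrees of freedom), and with Benjamini-Hochberg adjustment at 0.05. Array number limits the precision. Same-numbered arrays' deviations correlated at 0.368, 0.119 and 0.162, all above 0.1 (differently numbered pairs reached 0.195), so blocked values are given where they change a call. Labels describe samples as mice and do not say that replicate numbers mark a pairing. The test was checked in 5 runs of simulated data with changes of 1 or 2 on the log2 scale in 200 genes. It recovered 77% of the former and 99.8% of the latter, with 12.2 false calls per run. Smaller changes, such as those of the members, were not simulated. Detailed members are those called in any fit with the block or without 1 array, the 6 ligands and 8 receptors of smallest p, the 4 and 8 of highest signal, and 9 chosen by name. Members and lists were chosen with earlier results of these data known. The NF-κB motif was searched by its consensus on both strands.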

Additional observations from a re-analysis of the deposited data

How the results depend on the processing

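On the deposited values 0 members passed. Blocking on the replicate number gave 1 (Ltb), as did leaving out wild-type replicate 1, and array weights gave 2, 1 ligand (Ltb) and 1 receptor (Tnfrsf13c). Leaving out each array in turn gave 0 to 1 members, 0 to 1 ligands, 0 receptors and 0 signalling genes, and the replicate block changed no other call among the 23 members given by array. The signalling list had 0 calls under every alternative. The members' median log2 fold change was 0.068 over the 21 left without dim genes, and -0.16 to -0.11 with each array left out. Of 337 values of the 23 members under the 15 alternatives, 315 kept sign and side of the threshold, 4 were newly called and 18 turned sign. Under quantile and cyclic loess normalization these were, in that order, Lta (0.13 and 0.12), Tnfsf14 (-0.052 and -0.00091), Tnfrsf21 (-0.11 and -0.13), Tnfrsf1b (-0.064 and -0.074), Tnfrsf14 (-0.15 and -0.14) and Cd27 (-0.28 and -0.27), with Ltbr turning under quantile normalization alone (-0.00042). Cd27 also turned with array weights (-0.045), without wild-type replicate 1 (-0.084) and without knockout replicate 2 (-0.054), Tnfsf14 without wild-type replicate 2 (-0.038) and Tnfrsf14 without knockout replicate 1 (-0.024). With each array left out, Cd27 ran from -0.084 to 0.15, Tnfsf14 from -0.038 to 0.16 and Tnfrsf14 from -0.024 to 0.26. The cause was not tested. Mean signals of 20 members lie at or below the mark of 5.66, the 95th percentile of olfactory receptor genes, so their differences are uncertain.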

Other observations

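Superfamily genes and partners that the choice by symbol leaves out gave small differences. Eda, the gene of the ligand ectodysplasin, had signals of 5.46, 5.26 and 5.37 in wild-type mice and 5.19, 5.13 and 5.25 in knockout, below the olfactory receptor mark. Each knockout value was the lower, with a log2 fold change of -0.17 (SE 0.13; limma adjusted p = 0.424). Eda was 0.03 after quantile normalization. Its receptor gene Edar had a log2 fold change of -0.36, and of -0.15 without wild-type replicate 1, and the adaptor gene Edaradd of -0.03, both below the mark. Relt, a receptor of the family that lies above the mark, differed by 0.00 (95% interval -0.33 to 0.32; limma adjusted p = 0.996), and its relatives Rell1 and Rell2 had 0.19 and -0.20 (-0.05 and -0.40 after quantile normalization). None of the 6 passed limma, and 0 had an unadjusted p under 0.05.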
